A study of Mus musculus with 5 samples.

Results

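The ephrins, the semaphorins and the Slits are ligands that steer moving cells and growing axons, and the genes of these ligands and of their receptors were examined in the lower jaw tissue of mouse embryos with and without Yap and Taz in the neural crest. Members were all gene symbols of the deposited count table that belong to the ephrins (Efna, Efnb), the Eph receptors (Epha, Ephb), the semaphorins (Sema), the plexins (Plxna to Plxnd), the neuropilins (Nrp1, Nrp2), the Slits, the Robo receptors or the Unc5 receptors and that held at least 15 counts over all libraries. Of 23441 gene rows, 64 matched by name and 60 reached this minimum, 31 of them ligands and 29 receptors. Epha5, Epha6, Plxnb3 and Robo3 did not reach it, with 6 to 12 counts in all.

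Poly(A) RNA of mandibular tissue was sequenced at embryonic day 10.5 in 5 libraries. The 3 controls had the genotype Yapf/f, Tazf/f on the 129SvEv background. The 2 dCKO libraries had the genotype Wnt1Cre; Yapf/f, Tazf/f on the background C57BL/6J x CBA/J; 129SvEv. All embryos thus carried the floxed alleles, and only the dCKO embryos carried the Cre, which is active in the neural crest lineage. This Cre leaves the epithelium, the mesoderm, the endothelium and the blood of the arch unrecombined. Strain background and genotype cannot be told apart in this design. No label states that libraries came from separate embryos, so a p-value measures the spread between these samples, which may in part be technical. In bulk tissue, fewer cells of a type and less RNA per cell cannot be told apart.

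Ephrins sit on the cell surface, the A class through a lipid anchor and the B class through a transmembrane domain, and bind Eph receptor tyrosine kinases on neighbouring cells, so that both cells can respond. Semaphorins act on plexins, and the secreted class 3 semaphorins do so through the neuropilins as co-receptors. Slits act on Robo receptors, and Unc5 receptors respond to netrins. In the face, these systems are known for keeping streams of neural crest cells apart, for vessel growth and for guiding cranial nerves, and ephrin-B1 is needed for the formation of the face and palate.

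Library totals ran from 6491137 to 7439419 counts in the controls and from 11346480 to 13298973 counts in the dCKO libraries. Values are in CPM, the counts of a gene scaled to a common library size, after adjustment of library sizes by the trimmed mean method (TMM), and libraries are listed in replicate order throughout. Yap1 measured 312, 475 and 512 CPM in the controls and 175 and 169.9 CPM in the dCKO libraries, with both dCKO libraries below every control. Wwtr1, the gene of Taz, measured 38.4, 65.1 and 66.2 CPM in the controls and 22.7 and 22.8 CPM in the dCKO libraries. Here too the dCKO values lay below all 3 controls. Among 10 markers of neural crest mesenchyme, all were measured, 1 was called lower (Prrx1) and the summed level was 1762 to 1949.8 CPM in the controls against 1695 to 1728 CPM in the dCKO libraries. The libraries also differed in markers of other cells. All 10 erythroid markers were called higher, with a summed level of 3412 to 4422 CPM in the controls against 55663 to 79881 CPM in the dCKO libraries. Of 8 megakaryocyte and platelet markers, 6 were tested and all 6 were called higher, with a summed level of 8.86 to 17.04 CPM in the controls against 98.0 to 180.3 CPM in the dCKO libraries. Of 8 myeloid markers, 5 were tested and 1 was called higher, and the summed level was 12.1 to 16.5 CPM in the controls against 22.6 to 38.8 CPM in the dCKO libraries. Of 10 epithelial markers, 2 were called higher and none lower, and the summed level was 379.9 to 498 CPM in the controls against 562 to 586 CPM in the dCKO libraries. Of 10 endothelial markers, Cldn5 and Egfl7 were called higher and none lower, with a summed level of 300.4 to 328 CPM in the controls against 335 to 384 CPM in the dCKO libraries. Of 7 markers of the core mesoderm of the arch none was called, and the summed level was 88.4 to 101 CPM in the controls against 113 to 132 CPM in the dCKO libraries. The part of these cells in the results below was not tested, except where a value is given.

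Few guidance genes passed the test between dCKO and control tissue. The comparison of mRNA levels between the groups, which is the one the design names, called 1 member higher, Slit1, and 1 member lower, Sema3a (quasi-likelihood test of edgeR, with p adjusted by the Benjamini-Hochberg method over all 12710 genes tested and a threshold of 0.05). Across all genes tested, 5% were called higher and 1.42% lower, 6.42% in all. Of the 60 members, 57 passed the filter on low counts. Epha8, Epha10 and Unc5d did not, with at most 1.29 CPM in any library. Sema4f passed it only through its level in the dCKO libraries. The unadjusted p was below 0.05 for 13 members with higher and 4 members with lower values in dCKO tissue, against 11.9% and 9.65% of all genes tested. Both dCKO libraries lay above every control for 16 members and below every control for 4, where this held for 19.0% and 18.6% of all genes tested. The median log2 fold change was 0.14 for the members tested and −0.0006 for all genes tested. It was 0.097 for the 31 ligands and 0.21 for the 26 receptors tested. Of these receptors edgeR and DESeq2 called 0 and limma-voom 1 (Epha7), while the unadjusted edgeR p was below 0.05 for 9 with higher and 2 with lower values. A positive log2 fold change was found for 40 of the 57, and for 49.9% of all genes tested.

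The precision of these data bounded the change for most members, as it did for most genes tested. For 45 of the 55 members without a call, the 95% interval of the log2 fold change, not adjusted for the number of genes, lay between −1 and 1, which leaves out a doubling or a halving. With called genes included, 46 of the 57 members tested and 79.7% of all genes tested had such an interval. Epha2 was an exception among the members without a call, with an interval of 0.21 to 1.17. The others were Efna3, Ephb1, Plxnc1, Sema3b, Sema4a, Sema4f, Sema5b, Sema6b and Unc5a, none of which exceeded 9.95 CPM in any library. The plot of the change of each member shows the estimates with their intervals.

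**Figure D1:**
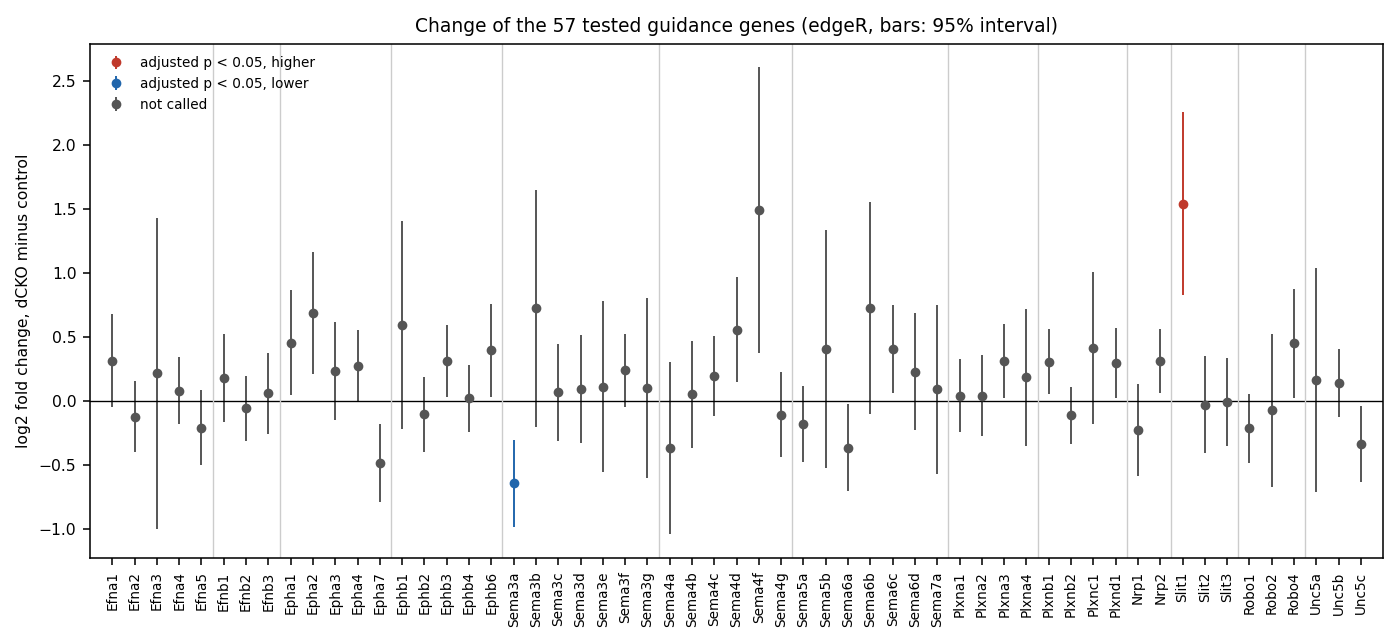
Log2 fold change of each of the 57 tested members, dCKO minus control (y axis), ordered by class from ephrins to Unc5 receptors (x axis, grey lines between classes). Points are edgeR estimates and bars their 95% intervals; Slit1 (red, 1.54) lies highest and was called higher, Sema3a (blue, −0.64) lies lowest and was called lower.

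Slit1, which encodes a secreted ligand of Robo receptors best known from the nervous system, was the member with the largest change. It measured 1.84, 3.52 and 2.44 CPM in the controls and 8.60 and 6.66 CPM in the dCKO libraries. Both dCKO libraries were above the highest control, at a low level throughout. The gene rose 2.92-fold (log2 fold change 1.54 with an SE of 0.34, adjusted p = 0.00755 in edgeR; 95% interval 0.83 to 2.26). The counts behind it were 14, 26 and 16 reads in the controls and 93 and 87 in the dCKO libraries. With 1 library left out the log2 fold change ranged from 1.34 to 1.83, and the call was lost without control replicate 1 (edgeR adjusted p = 0.0524) or dCKO replicate 1 (edgeR adjusted p = 0.163). Because Slit1 is known from neural tissue, markers of neurons and of crest-derived glia were set beside it. Of 10 neuronal markers 5 were tested and none was called. The 10 summed to 165, 172 and 126 CPM in the controls and 146 and 152 CPM in the dCKO libraries. Gap43 alone measured 133, 136 and 98.2 CPM in the controls and 108 and 115 CPM in the dCKO libraries, so the sum says little of the others. The groups overlapped for all 5 tested. Of the untested ones, Elavl3, Neurog1 and Pou4f1 had both dCKO libraries above every control, at 1.38 CPM or less, while Stmn2 and Neurod1 overlapped. Of 7 glial markers 3 were tested and Sox10, a transcription factor of the neural crest and of glia, was called higher. Sox10 had 0 counts in each control and measured 5.45 and 1.68 CPM in the dCKO libraries. It thus passed the filter on low counts only through its level in the dCKO libraries. The summed level of the glial markers was 14.8, 17.3 and 16.3 CPM in the controls and 26.6 and 20.6 CPM in the dCKO libraries. Their part in the change of Slit1 was not tested.

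The other Slits were not called. Slit3 measured 41.5, 40.6 and 35.1 CPM in the controls and 31.9 and 45.9 CPM in the dCKO libraries. Slit2 measured 24.8, 27.5 and 22.5 CPM in the controls and 20.5 and 28.4 CPM in the dCKO libraries. In both, dCKO replicate 1 was the lowest of the 5 libraries and dCKO replicate 2 the highest, so that the groups overlapped. Their log2 fold changes were −0.004 (95% interval −0.35 to 0.34) and −0.024 (95% interval −0.40 to 0.36), and the difference from Slit1 was not tested. Per length of transcript Slit1 was the least abundant Slit in both groups, at 0.458 and 1.34 CPM per kb in control and dCKO tissue, against 2.50 and 2.46 for Slit2 and 7.47 and 7.44 for Slit3. No Robo receptor was called. Robo1, the main Robo of this tissue by level, measured 133, 131 and 136 CPM in the controls and 101 and 129 CPM in the dCKO libraries, with both dCKO libraries below every control (log2 fold change −0.21 with an SE of 0.13, adjusted p = 0.362 in edgeR). Robo4, a receptor of endothelial cells, measured 11.96, 11.4 and 11.6 CPM in the controls and 14.6 and 17.2 CPM in the dCKO libraries, with both dCKO libraries above every control (log2 fold change 0.45 with an SE of 0.20, adjusted p = 0.199 in edgeR). Of the 10 endothelial markers, 4 had both dCKO libraries above every control (Cldn5 and Egfl7, which were called, and Esam and Tie1), and 6 overlapped, Cdh5 and Pecam1 among them. Over all genes tested, 19.0% had both dCKO libraries above every control. The summed level of the 10 endothelial markers was 328, 322 and 300.4 CPM in the controls and 335 and 384 CPM in the dCKO libraries. The part of vessel content in the values of Robo4 was not tested. Robo2 was at 21.7 and 22.6 CPM in control replicates 1 and 2 and at 8.25 CPM in control replicate 3, a 2.74-fold spread within the controls that took in both dCKO values (15.4 and 18.1 CPM).

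Sema3a, which encodes a secreted semaphorin that repels axons and migrating neural crest cells through Nrp1 and A-type plexins, was the member called lower. It measured 115, 101 and 72.7 CPM in the controls and 55.5 and 68.0 CPM in the dCKO libraries. Both dCKO libraries were below the lowest control, and control replicate 3 was closer to dCKO replicate 2 than to control replicate 2. The gene fell 1.56-fold (log2 fold change −0.64 with an SE of 0.16, adjusted p = 0.0195 in edgeR; 95% interval −0.98 to −0.30). With 1 library left out the log2 fold change ranged from −0.81 to −0.49. The call was lost without control replicate 1 (edgeR adjusted p = 0.171) or dCKO replicate 1 (edgeR adjusted p = 0.292). It was also lost once the dependence of counts on GC content had been taken out of every library (log2 fold change −0.44 with an SE of 0.13, adjusted p = 0.0596 in edgeR). The co-receptor gene Nrp1 measured 27.3, 30.0 and 26.9 CPM in the controls and 20.9 and 27.1 CPM in the dCKO libraries, with overlapping groups (log2 fold change −0.22 with an SE of 0.17, adjusted p = 0.474 in edgeR). Nrp2, which binds mainly Sema3f and Sema3c, measured 110.4, 112 and 109 CPM in the controls and 129.7 and 145 CPM in the dCKO libraries. Its 3 controls lay close together and below both dCKO libraries, but it did not pass the test (log2 fold change 0.31 with an SE of 0.12, adjusted p = 0.13 in edgeR).

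None of the other 6 class 3 semaphorins was called. Sema3f, the next most abundant by CPM, measured 43.8, 45.0 and 49.0 CPM in the controls and 50.3 and 58.3 CPM in the dCKO libraries (log2 fold change 0.24 with an SE of 0.14, adjusted p = 0.315 in edgeR). Sema3c, a ligand known from the outflow tract of the heart, and Sema3d measured 20.2 to 30.4 CPM and 15.7 to 25.2 CPM over the 5 libraries, with overlapping groups. Sema3b, Sema3e and Sema3g stayed at or below 7.12 CPM. The class 3 genes together summed to 213, 212 and 169.7 CPM in the controls and 166 and 187 CPM in the dCKO libraries, where control replicate 3 lay between the dCKO libraries.

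YAP and TAZ bind DNA through TEAD factors, so the members' promoters were searched for the core of the TEAD motif, GGAATG or its reverse complement CATTCC, in the 250 bases before each annotated start. RefSeq promoters of build GRCm38.p6 were found for 52 of the 60 members, and 7 of these 52 genes (13.5%) held the motif, against 14.4% of all 27025 genes of the table. They were Efnb2, Epha1, Epha2, Epha3, Plxnb1, Plxnd1 and Sema4a. Neither called member was among them: Sema3a held no match in its window, and Slit1 was among the members without an entry. A match is a description of these letters and not a binding site. The window of Sema3a, shown because the gene fell, lies on the plus strand at chr5:13396534-13396783, inside an intron of longer Sema3a transcripts in the GENCODE annotation. That of Epha2, shown because it holds the motif in 2 places, lies on the plus strand at chr4:141300971-141301220, upstream of the gene and in no annotated exon. Capitals mark the motif, which starts 243 and 56 bases before the start site in Epha2.
Sema3a: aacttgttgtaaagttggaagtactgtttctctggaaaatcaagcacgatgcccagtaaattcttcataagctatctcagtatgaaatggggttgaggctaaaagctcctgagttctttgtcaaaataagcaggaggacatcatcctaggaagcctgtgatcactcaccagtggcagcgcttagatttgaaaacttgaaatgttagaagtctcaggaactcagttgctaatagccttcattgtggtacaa
Epha2: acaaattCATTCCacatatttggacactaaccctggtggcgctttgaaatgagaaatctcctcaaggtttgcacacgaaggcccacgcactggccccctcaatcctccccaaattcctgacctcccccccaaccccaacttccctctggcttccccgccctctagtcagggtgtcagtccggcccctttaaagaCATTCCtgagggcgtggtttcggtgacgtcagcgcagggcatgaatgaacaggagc

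The membrane-bound semaphorins had higher values in dCKO tissue in some members, without a call. Sema4c, the most abundant class 4 gene and a ligand of plexin-B2, measured 81.9, 79.4 and 117 CPM in the controls and 109.7 and 104 CPM in the dCKO libraries. The first 2 controls were the lowest libraries, and control replicate 3 the highest of all (log2 fold change 0.20 with an SE of 0.15, adjusted p = 0.459 in edgeR). Sema4d, a ligand of plexin-B1 that is also carried by platelets and lymphocytes, measured 12.1, 16.4 and 17.9 CPM in the controls and 22.6 and 22.8 CPM in the dCKO libraries, with the groups apart (log2 fold change 0.56 with an SE of 0.19, adjusted p = 0.097 in edgeR). The part of the platelet RNA described above in the values of Sema4d was not tested. Sema4f measured 0.657, 0.812 and 1.07 CPM in the controls and 1.66 and 3.06 CPM in the dCKO libraries, which is 5, 6 and 7 reads against 18 and 40, with an edgeR adjusted p of 0.105. Sema5a, the most abundant member of classes 5 to 7, measured 145, 112 and 141 CPM in the controls and 104 and 130.4 CPM in the dCKO libraries, with overlapping groups (log2 fold change −0.18 with an SE of 0.14, adjusted p = 0.493 in edgeR). Sema6c measured 21.2, 27.3 and 26.6 CPM in the controls and 32.0 and 34.3 CPM in the dCKO libraries, with both dCKO libraries above every control (log2 fold change 0.41 with an SE of 0.16, adjusted p = 0.154 in edgeR). Sema6a, a transmembrane ligand of plexins A2 and A4, measured 47.04, 61.1 and 49.7 CPM in the controls and 34.3 and 47.5 CPM in the dCKO libraries, and dCKO replicate 2 lay just above control replicate 1 (log2 fold change −0.36 with an SE of 0.16, adjusted p = 0.202 in edgeR). The remaining class 4 to 7 genes had log2 fold changes from −0.37 (Sema4a) to 0.73 (Sema6b), and none passed the test.

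None of the 8 measured plexins was called. Plxnb2, a receptor of class 4 semaphorins and the most abundant member of all by CPM, measured 406, 413 and 445 CPM in the controls and 388 and 392.4 CPM in the dCKO libraries. Its dCKO values lay just under the lowest control (log2 fold change −0.11 with an SE of 0.11, adjusted p = 0.593 in edgeR; 95% interval −0.34 to 0.12). With the GC trend taken out it was further down but did not pass the test (log2 fold change −0.31 with an SE of 0.09, adjusted p = 0.0546 in edgeR). Plxna1 measured 238, 216 and 301 CPM in the controls and 241 and 278 CPM in the dCKO libraries, with both dCKO libraries inside the range of the controls (log2 fold change 0.045 with an SE of 0.14, adjusted p = 0.888 in edgeR). Plxnb1, the receptor of Sema4d, measured 153, 157 and 181 CPM in the controls and 211 and 195 CPM in the dCKO libraries, with the groups apart (log2 fold change 0.31 with an SE of 0.12, adjusted p = 0.145 in edgeR). Plxna3 measured 39.0, 34.4 and 36.7 CPM in the controls and 45.2 and 46.1 CPM in the dCKO libraries (log2 fold change 0.32 with an SE of 0.14, adjusted p = 0.195 in edgeR). Plxnd1, which acts in vessel and outflow tract development and binds Sema3e, measured 153, 160.4 and 159 CPM in the controls and 166 and 222 CPM in the dCKO libraries (log2 fold change 0.30 with an SE of 0.13, adjusted p = 0.186 in edgeR). In Plxnd1 the lower dCKO library exceeded the highest control by less than the dCKO libraries differed from each other. Plxna2, Plxna4 and Plxnc1 had overlapping groups.

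**Figure D2:**
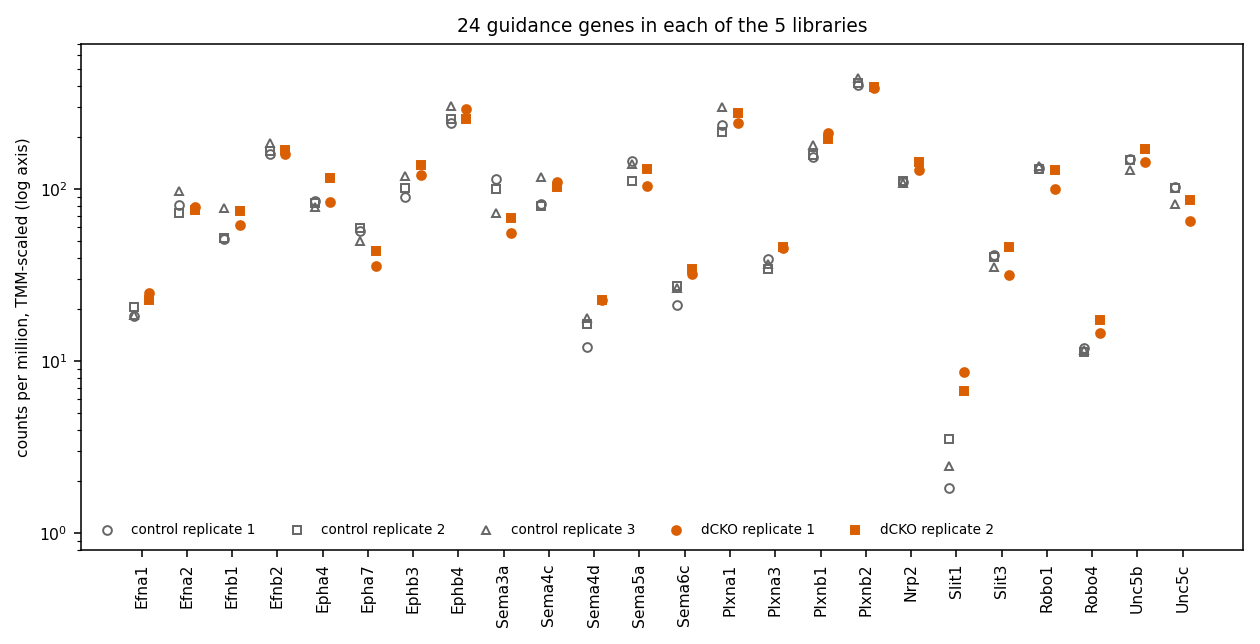
Level of 24 members in each library, in CPM on a log axis (y axis), by gene (x axis); open grey symbols are the 3 controls and filled orange symbols the 2 dCKO libraries. The genes are the 2 called members and, for each class, the most abundant member and that with the smallest p; the groups stand clearly apart for Slit1, from 1.84 to 3.52 CPM against 6.66 to 8.60 CPM, and lie close together for most others.

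No ephrin was called in either direction. Efnb2, a transmembrane ephrin of arteries and mesenchyme, was the most abundant by CPM and measured 159, 166 and 185 CPM in the controls and 159 and 169 CPM in the dCKO libraries. The first dCKO library was level with the lowest control and the second lay among the controls, and the 95% interval of the log2 fold change was −0.31 to 0.20. Efnb1 measured 51.6, 51.9 and 77.3 CPM in the controls and 61.6 and 74.8 CPM in the dCKO libraries, where control replicate 3 was the highest of all libraries (log2 fold change 0.18 with an SE of 0.16, adjusted p = 0.55 in edgeR). Efnb3 ranged from 33.4 to 43.3 CPM with overlapping groups. Among the A class, Efna2 measured 81.2, 72.4 and 97.8 CPM in the controls and 78.7 and 75.4 CPM in the dCKO libraries (log2 fold change −0.12 with an SE of 0.13, adjusted p = 0.65 in edgeR), and Efna4 ranged from 63.2 to 77.7 CPM over all libraries. Efna1, the A-class member with the smallest p, measured 18.3, 20.6 and 18.5 CPM in the controls and 25.0 and 22.7 CPM in the dCKO libraries (log2 fold change 0.32 with an SE of 0.17, adjusted p = 0.296 in edgeR). Its groups did not overlap. Efna5 and Efna3 had overlapping groups, at 46.5 to 64.5 CPM and 0.657 to 1.99 CPM.

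Of 10 tested Eph receptors, edgeR called none, and Epha7 had the smallest p. Epha7, a receptor of A-class ephrins, measured 56.8, 59.8 and 50.3 CPM in the controls and 35.6 and 44.0 CPM in the dCKO libraries, with both dCKO libraries below every control (log2 fold change −0.48 with an SE of 0.14, adjusted p = 0.0537 in edgeR; 95% interval −0.79 to −0.18). Limma-voom called it lower (adjusted p = 0.0486). With the GC trend taken out its estimate was closer to 0 (log2 fold change −0.30 with an SE of 0.12, adjusted p = 0.197 in edgeR). Epha2, a receptor of ephrin-A1 that is common in epithelia, measured 8.54, 7.57 and 10.8 CPM in the controls and 13.1 and 15.8 CPM in the dCKO libraries, with the groups apart (log2 fold change 0.69 with an SE of 0.23, adjusted p = 0.0809 in edgeR). The summed level of the epithelial markers was also higher in both dCKO libraries than in any control, and its part in the values of Epha2 was not tested. Epha4, the most abundant EphA receptor by CPM, measured 85.8, 83.6 and 79.1 CPM in the controls and 84.4 and 116 CPM in the dCKO libraries. Only dCKO replicate 2 stood apart (log2 fold change 0.28 with an SE of 0.13, adjusted p = 0.238 in edgeR). Epha1 measured 12.1, 12.8 and 13.0 CPM in the controls and 18.7 and 16.1 CPM in the dCKO libraries (log2 fold change 0.46 with an SE of 0.20, adjusted p = 0.18 in edgeR), and Epha3 ranged from 26.1 to 43.0 CPM with overlapping groups. Ephb4, the receptor of ephrin-B2 on veins, was the most abundant EphB gene and measured 244, 255 and 306 CPM in the controls and 291 and 255 CPM in the dCKO libraries, with dCKO values inside the range of the controls (95% interval −0.24 to 0.29). Ephb3 measured 90.1, 102 and 120.1 CPM in the controls and 121 and 137 CPM in the dCKO libraries, where the lower dCKO value was only just above the highest control (log2 fold change 0.31 with an SE of 0.13, adjusted p = 0.181 in edgeR). Ephb6, a member without kinase activity, measured 18.1, 20.2 and 20.9 CPM in the controls and 28.6 and 23.5 CPM in the dCKO libraries (log2 fold change 0.40 with an SE of 0.17, adjusted p = 0.189 in edgeR). Ephb2 and Ephb1 had overlapping groups, with log2 fold changes of −0.10 and 0.60.

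Of the 3 tested Unc5 receptors, none was called. Unc5b, a receptor of netrin 1 that vessels also carry, measured 150.4, 149 and 130.0 CPM in the controls and 144 and 172 CPM in the dCKO libraries (log2 fold change 0.14 with an SE of 0.13, adjusted p = 0.547 in edgeR). Unc5c measured 102, 102 and 82.0 CPM in the controls and 64.97 and 86.7 CPM in the dCKO libraries. Here dCKO replicate 1 was the lowest library, but dCKO replicate 2 lay above control replicate 3 (log2 fold change −0.33 with an SE of 0.14, adjusted p = 0.178 in edgeR). Unc5a did not exceed 3.05 CPM. Ntn1, the gene of their ligand netrin 1, was called higher. It measured 15.6, 17.04 and 26.6 CPM in the controls and 33.2 and 30.5 CPM in the dCKO libraries, and rose in both dCKO libraries above every control (log2 fold change 0.69 with an SE of 0.20, adjusted p = 0.044 in edgeR). Its call was lost without any 1 library other than control replicate 3, with adjusted p up to 0.273, and with the GC trend taken out (log2 fold change 0.50, adjusted p = 0.117 in edgeR). A list of 12 genes beyond Unc5 held netrins, netrin receptors, Rgma, Rgmb and Draxin. Of these 12, 9 were tested, and Ntn1 was the only one called, where 5% of all genes tested were called higher. The netrin receptor Dcc did not pass the filter, and Neo1 measured 205, 195 and 191 CPM in the controls and 146 and 173 CPM in the dCKO libraries, with both dCKO libraries below every control (log2 fold change −0.30 with an SE of 0.12, adjusted p = 0.156 in edgeR). Of the Flrt, Nell and latrophilin genes, which encode further partners of Unc5 and Robo receptors, 7 of 9 listed symbols were in the table, 5 were tested and none was called, with a median log2 fold change of −0.33. Flrt2, a ligand of Unc5 receptors, measured 92.0, 81.4 and 76.8 CPM in the controls and 55.1 and 73.9 CPM in the dCKO libraries (log2 fold change −0.37 with an SE of 0.14, adjusted p = 0.129 in edgeR). The latrophilin gene Lphn2 measured 233, 245 and 224 CPM in the controls and 173 and 199 CPM in the dCKO libraries (log2 fold change −0.33 with an SE of 0.12, adjusted p = 0.111 in edgeR). In both, the dCKO libraries lay below every control. Nell2, a ligand of Robo3, measured 30.5, 29.6 and 28.1 CPM in the controls and 33.5 and 36.8 CPM in the dCKO libraries, with both dCKO libraries above every control (log2 fold change 0.26 with an SE of 0.15, adjusted p = 0.338 in edgeR). Flrt3 and Lphn3 had overlapping groups, with log2 fold changes of −0.37 and 0.18.

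Ligands and receptors known to bind each other were set side by side. For Slit1, which rose, the receptor genes Robo1 and Robo2 had log2 fold changes of −0.21 (95% interval −0.48 to 0.060) and −0.071 (−0.67 to 0.52). For Sema3a, which fell, the values were −0.22 (−0.58 to 0.13) for Nrp1, 0.045 (−0.24 to 0.33) for Plxna1 and 0.19 (−0.35 to 0.73) for Plxna4. Sema4d and Plxnb1 both had positive values, 0.56 and 0.31, with intervals above 0 in each and no call in either. Sema4c and its receptor gene Plxnb2 had values of 0.20 and −0.11. Sema3f and Nrp2 had values of 0.24 and 0.31. Efnb2 and Ephb4 were both close to 0, at −0.052 and 0.026. The 31 ligand genes summed to 1132, 1145 and 1228 CPM in the controls and 1099 and 1212 CPM in the dCKO libraries, and the 29 receptor genes to 2303, 2308 and 2448 CPM in the controls and 2352 and 2598 CPM in the dCKO libraries. The ligand sums of the groups overlapped. In the receptor sums dCKO replicate 2 was the highest library, and dCKO replicate 1 lay among the controls.

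Some of the intracellular genes through which these receptors signal were called. For comparison, 5% of all genes tested were called higher and 1.42% lower. Of 27 genes of semaphorin and plexin signalling, 1 was higher and 1 lower, with a median log2 fold change of 0.017. Crmp1, which encodes a collapsin response mediator protein that relays Sema3a signals to microtubules, measured 88.4, 91.2 and 92.4 CPM in the controls and 52.0 and 55.4 CPM in the dCKO libraries. The controls lay close together, and both dCKO libraries were far below them. Crmp1 fell (log2 fold change −0.75 with an SE of 0.12, adjusted p = 3.12e-04 in edgeR), and it passed the test with any 1 library left out (−0.80 to −0.70, edgeR adjusted p up to 0.0162) and with the GC trend taken out (log2 fold change −0.92, adjusted p = 2.49e-05 in edgeR). Its relative Dpysl5 rose from 26.4 to 29.0 CPM in the controls to 38.0 and 41.4 CPM in dCKO tissue (log2 fold change 0.51 with an SE of 0.15, adjusted p = 0.0472 in edgeR), a call lost without any 1 library other than control replicate 3 (edgeR adjusted p up to 0.25), in DESeq2 (0.0555) and with the GC trend taken out (0.212). Dpysl2, Dpysl3 and Dpysl4 had log2 fold changes of −0.089, −0.49 and 0.32 without a call. Of 31 genes of Eph and ephrin signalling, 28 were tested, and Grb7 and Acp1 were called higher (median −0.024). Grb7, an adaptor that binds activated kinases, measured 19.7, 20.4 and 22.8 CPM in the controls and 36.0 and 31.1 CPM in the dCKO libraries (log2 fold change 0.68 with an SE of 0.16, adjusted p = 0.0149 in edgeR), a call that did not hold when control replicate 1 or dCKO replicate 1 was left out (edgeR adjusted p of 0.0789 and 0.214) and after removal of the GC trend (0.0561). Acp1, which encodes a phosphatase of Eph receptors, measured 54.5, 25.7 and 56.1 CPM in the controls and 63.7 and 91.4 CPM in the dCKO libraries, with control replicate 2 far below the other controls (log2 fold change 0.78 with an SE of 0.23, adjusted p = 0.0456 in edgeR). Its call was lost in DESeq2 (adjusted p = 0.405), under the stricter filter on low counts (0.0507) and without control replicate 1 or 2 or dCKO replicate 2 (edgeR adjusted p up to 0.375). Of 13 genes of Slit and Robo signalling, all tested, edgeR called 0. The unadjusted p was below 0.05 for 2 of them with higher and 3 with lower values, where this held for 11.9% and 9.65% of all genes tested. Enah, an actin regulator downstream of Robo, came nearest, at 222, 218 and 199 CPM in the controls and 157 and 174 CPM in the dCKO libraries (log2 fold change −0.36 with an SE of 0.12, adjusted p = 0.0794 in edgeR).

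The direction of change among the guidance genes went with the base composition of their transcripts. The members tested had a median GC content of 56.1% in their longest annotated transcript, against 49.9% for all genes tested. Of 39 members with at least 50% GC, 32 had a positive log2 fold change (median 0.22), and of 18 members below 50% GC, 8 did (median −0.047). Over all genes tested, 70.3% of those with at least 50% GC and 30.1% of those below had a positive value (medians 0.13 and −0.13). Across the 57 members the change correlated with GC content with a Pearson coefficient of 0.445 and a Spearman coefficient of 0.389, given as a description since these genes share the same 5 libraries. Sema3a and Epha7 had 40.8% and 41.7% GC, and Slit1, Epha2 and Plxnb1 had 58.9%, 56.9% and 57.6%. With the GC trend taken out of every library, the members' medians were 0.042 at or above 50% GC and 0.073 below it, and 32 of 57 had a positive value. Slit1 still passed the test (log2 fold change 1.32 with an SE of 0.33, adjusted p = 0.0293 in edgeR), and Sema3a did not.

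**Figure D3:**
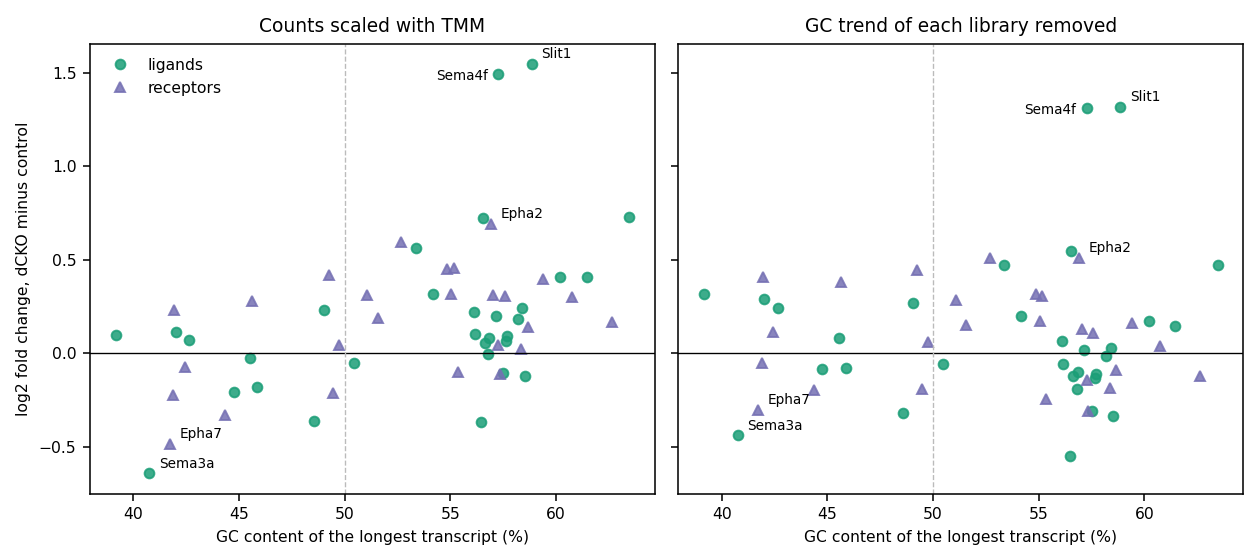
Log2 fold change of the 57 tested members (y axis) against the GC content of the longest transcript in percent (x axis), on the left from TMM-scaled counts and on the right after each library's GC trend was removed; circles are ligands, triangles receptors, and the dashed line marks 50% GC. On the left 32 of 39 members at or above 50% GC lie above 0, and on the right 22 do.

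Libraries of 1 group differed for many members. Of the 57 members tested, 40 were higher in dCKO replicate 2 than in dCKO replicate 1, where 49.5% of all genes tested were. The median ratio between these libraries was 1.28 for members below 50% GC and 1.06 for the others. Control replicate 3 was the highest control for 26 members and the lowest for 19, which left it between the other controls for 12. These counts were not set against all genes tested, so they do not mark the members out. Calls moved with the libraries that entered the test. Without control replicate 3, 6 members were called higher (Epha2, Ephb3, Plxnb1, Sema4c, Sema4d and Slit1) and 2 lower (Epha7 and Sema3a), with 7.37% and 5.33% of all genes called in these directions. Without control replicate 1 or without dCKO replicate 1, edgeR called 0 members, with 485 and 442 calls over all genes. In the fits without dCKO replicate 1 or without dCKO replicate 2, the lone dCKO library was taken to vary like the controls.

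The levels of the guidance genes spanned more than 3 orders of magnitude. Per kb of the longest transcript, the most abundant were Plxnb2 and Ephb4, with Plxnb2 at 64.8 and 60.1 CPM per kb in control and dCKO tissue and Ephb4 at 61.8 and 62.9. Their order was reversed between the groups, and they differed by less than the values of Ephb4 did between libraries. The next were the ephrins Efna4 at 43.7 and 46.4 CPM per kb in control and dCKO tissue, Efna2 at 39.3 and 36.2, and Efnb2 at 35.5 and 34.2. Plxna1, Unc5b, Sema4c, Plxnd1 and Ephb3 followed, with control levels between 21.9 and 27.9 CPM per kb. Sema3a stood at 16.2 and 10.4 CPM per kb. At the other end, Epha8, Epha10 and Unc5d were at or below 0.243 CPM per kb in either group.

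**Figure D4:**
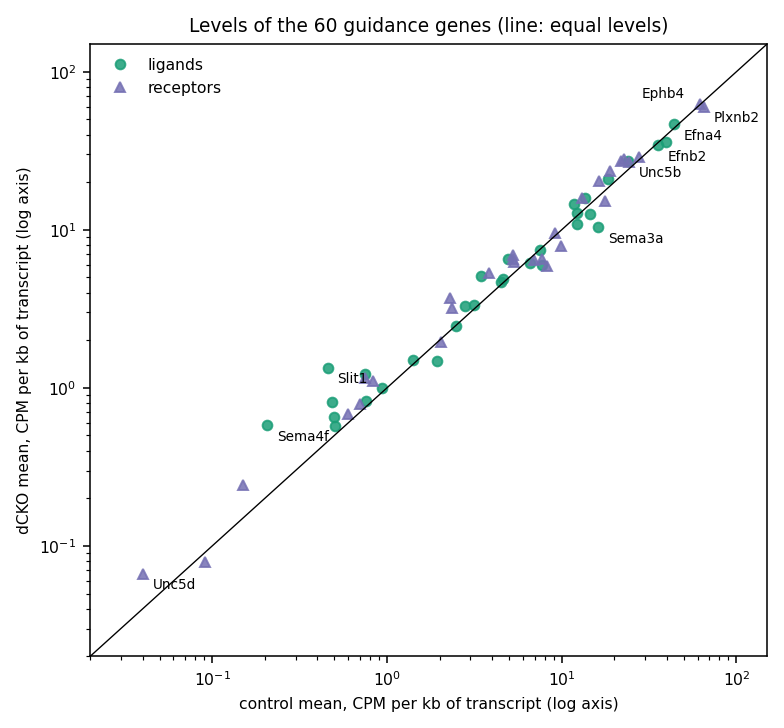
Mean level of each of the 60 members in dCKO tissue (y axis) against control tissue (x axis), both in CPM per kb of the longest transcript on log axes; circles are ligands, triangles receptors, and the line marks equal levels. Most members lie close to the line, while Slit1, at 0.458 against 1.34 CPM per kb, lies above it and Sema3a, at 16.2 against 10.4 CPM per kb, below it.

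The authors' deposited table of their own comparison holds all 60 members and gives an adjusted p below 0.05 for 1 of them, against 2.88% of its 18610 genes. This is Slit1, with an adjusted p of 0.00516 and a log2 fold change of 1.52 in the authors' deposited table. For Sema3a the authors' deposited table has a log2 fold change of −0.62 and an adjusted p of 0.494, so that the call of Sema3a given here is not made there.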

How the data were processed

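Per the labels' protocols, total RNA of dissected mandibular tissue was cleared of DNA and enriched for poly(A) RNA, and an Ion Total RNA-Seq v2 kit served for the libraries. The authors deposited raw counts per gene symbol for 5 libraries. The submitters' processing notes name the mm9 build, DESeq 1.16.0 and HTSeq 0.5.4p3. Strand handling, counting mode, annotation and aligner were among steps not given in the sources used here, and reads of genes that overlap, antisense ones included, may be mixed. A second deposited table holds, per the file headers, the signal (mean normalized counts), fold change as a ratio and on the log2 scale, and p-values of the authors' own comparison. Count columns headed wild type were matched to the control titles by replicate number.

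Counts were analysed in R 4.3.3 with edgeR 4.0.16: filterByExpr (minimum count 10, minimum total 15; 12710 genes kept), TMM scaling, and the two-sided quasi-likelihood test of dCKO against control with p adjusted over all genes (Benjamini-Hochberg) and called below 0.05. The SE was taken from the log2 fold change and F, and 95% intervals use the moderated degrees of freedom. Script steps were tested on simulated data. Transcript length and GC content came from GENCODE M21 (GRCm38), with a GC value for 99.3% of tested genes; as the build differs from mm9, coordinates are given only for promoters of the RefSeq table. Replicates were no duplicates of each other, differing beyond sampling noise (mean chi-square per gene 4.34 to 14.6).

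Full values are given for called members and, per class, for the most abundant member and that with the smallest p; other members named with values, such as Sema4f, Epha2, Plxnd1, Sema6a, Nrp1, Robo2 and Slit2, were chosen after their values were seen. Of the lists of partner and signalling genes, the called ones are named by rule, and Neo1, Flrt2, Flrt3, Lphn2, Lphn3, Nell2, Enah and Dpysl2 to Dpysl4 were added; 1 of these lists and some single markers are not reported here. The members and lists were chosen with earlier results of these data known. Alternatives were RLE scaling, scaling without erythroid and globin genes, DESeq2 1.42.0, limma-voom (limma 3.58.1), a looser filter (15 counts in all) and a stricter one (mean of 5 CPM, with 1 CPM reached in 2 libraries), removal of each library's GC trend (lowess, span 0.3), each library left out, and the replicate number as a block.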

Additional observations from a re-analysis of the deposited data

How the results depend on the processing

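Leaving out 1 library at a time moved the number of members called higher between 0 and 6 and of members called lower between 0 and 2. Over all genes it moved the calls between 442 and 1637, those higher between 403 and 950 and those lower between 39 and 687, with the highest counts without control replicate 3 and the lowest without dCKO replicate 1. The stricter filter gave 0 members higher, because Slit1 was not tested under it. Removal of the GC trend gave 0 lower, and limma-voom 2 lower (Epha7 and Sema3a); with RLE scaling, scaling without erythroid and globin genes, DESeq2 and the looser filter the members' counts stayed at 1 and 1.

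With the replicate number as a block, 7 members were called higher (Efnb1, Epha2, Ephb3, Plxnb1, Sema4c, Sema4d and Slit1) and 4 lower (Epha7, Sema3a, Sema6a and Unc5c). Over all genes 2121 were called, 1200 higher (9.44% of those tested) and 921 lower (7.25%). Control replicate 3 was alone in its block, so it did not enter the estimated difference between the groups. No label says that the numbers pair the libraries. The deviations from the group means of same-numbered libraries had correlations of 0.084 and −0.0042. With 2 dCKO libraries, the deviations of the 1 mirror those of the other, so these correlations cannot decide whether the numbers pair libraries.

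Of 311 values for the 24 members described in full, 276 kept direction and side of the threshold, 5 lost and 13 gained a call, and 17 changed sign. None of the 17 values that changed sign passed the test: with the GC trend removed Efnb1 had a log2 fold change of −0.016, Ephb4 −0.19, Plxna1 −0.14 and Unc5b −0.089, under the stricter filter Slit3 had 0.018, and with the replicate block Efna2 had 0.0076 and Efnb2 0.012. With 1 library left out Efnb2 ranged from −0.093 to 0.0048, Ephb4 from −0.060 to 0.12, Plxna1 from −0.057 to 0.19 and Slit3 from −0.29 to 0.24; the cause was not tested. With 2 dCKO libraries the precision was limited, and for 10 members without a call the 95% interval reached beyond a doubling or a halving.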
